A study of Mus musculus with 6 samples.

Results

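The 10 genes described here form the switch that carries a cell through G1: the D cyclins Ccnd1, Ccnd2 and Ccnd3, the kinases Cdk4 and Cdk6, the INK4 inhibitors Cdkn2a, Cdkn2c and Cdkn2d, the inhibitor Cdkn1b and the substrate Rb1. They were named by symbol, with no measured value in the rule, though earlier results of these data were known when they were chosen. They were found through the mouse Ensembl IDs of the count table. All 10 were among its 49585 gene IDs, and all 10 were among the 15812 genes with enough counts to test. RNA-seq was done on mouse acute myeloid leukemia with KMT2A-MLLT3, which joins a histone methyltransferase to a protein that recruits DOT1L, an enzyme that methylates histone H3. Every library, the reference included, carried that fusion. Marrow of sick mice was transduced with DOT1L, cells with low and high expression were separated by sorting, and RNA was taken 3 days later from cultures supplied with the cytokines IL3, IL6 and SCF. The 3 labels are NT, DOT1L Low and DOT1L High, with 1 library each from K3117 and K3174, read here as 2 leukemias. NT is not expanded by the labels, which also do not say whether its cells were transduced or sorted. The promoter that drives DOT1L, the strain, age and sex of the mice, and whether cells of several mice were pooled could not be read from the labels.

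D cyclins are made in response to growth factors and activate CDK4 and CDK6. The active kinases phosphorylate RB1, which then releases E2F factors to transcribe genes for DNA replication. INK4 proteins bind CDK4 and CDK6 and keep cyclin D away, while p27, the product of Cdkn1b, inhibits CDK2 and associates with cyclin D complexes. In blood cells Ccnd2, Ccnd3 and Cdk6 are the forms in common use, and leukemias with KMT2A fusions are known to depend on CDK6. Much of this control acts on protein stability and phosphorylation, which RNA counts do not measure.

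RefSeq promoter windows on GRCm38.p6 were matched by symbol for 7 of the 10 genes, and 3 stretches are shown. Those of Cdkn2a show what its count adds up, since the gene has 2 start sites. The upstream one makes the transcript of p19ARF, which acts on p53, and the downstream one that of p16INK4a, so a count per gene adds them together. Cdk4, the most abundant of the 10 genes per kb of exon though not in total counts, is shown as a known target of MYC, which binds the E-box CACGTG. Each line gives gene-strand sequence upstream of the start, without bases that GENCODE places in an exon. Capitals mark matches on either strand to CACGTG, to TTTNNCGC, a form of the E2F site, and to the GC-box GGGCGG.
Cdkn2a, p19ARF start, chr4:89294654-89294869, minus strand: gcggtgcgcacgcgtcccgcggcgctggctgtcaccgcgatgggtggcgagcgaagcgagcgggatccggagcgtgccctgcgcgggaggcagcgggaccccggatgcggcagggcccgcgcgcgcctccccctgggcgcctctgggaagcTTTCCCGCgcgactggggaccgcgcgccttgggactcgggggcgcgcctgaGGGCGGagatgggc
Cdkn2a, p16INK4a start, chr4:89282193-89282442, minus strand: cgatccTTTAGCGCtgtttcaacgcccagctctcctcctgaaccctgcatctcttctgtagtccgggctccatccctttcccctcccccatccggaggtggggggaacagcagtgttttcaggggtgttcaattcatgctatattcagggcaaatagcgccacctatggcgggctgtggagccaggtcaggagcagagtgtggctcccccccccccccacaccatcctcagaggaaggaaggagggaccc
Cdk4, chr10:127063285-127063533, plus strand: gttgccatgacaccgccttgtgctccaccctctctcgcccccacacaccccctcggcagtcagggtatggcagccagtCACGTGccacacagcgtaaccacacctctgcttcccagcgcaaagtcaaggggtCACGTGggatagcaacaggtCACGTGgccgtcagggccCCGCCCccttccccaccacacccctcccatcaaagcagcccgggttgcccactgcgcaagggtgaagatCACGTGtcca
The Cdk4 stretch held 4 E-boxes, a number reached by 7 of 32851 RefSeq windows of 250 bases (0.0213%), and 1 GC-box. Each Cdkn2a stretch held 1 match to TTTNNCGC, which 4.28% of the windows had, and the p19ARF stretch held 1 GC-box, which 32.7% had. At least 1 E-box was present in 6.02% of windows, and no other stretch of the 7 genes held any. Exon bases were not removed from the windows behind these shares. The matches describe letters only.

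Total counts per library ran from 22908445 to 33265848. The mouse gene Dot1l was counted between 127.8 and 183.7 CPM (counts relative to the library's size after TMM scaling) and did not follow the order of the labels. Whether the transduced DOT1L would be counted under this gene is not known, so groups are named by label only. The cells carried the fusion's known targets: the summed level of Hoxa9, Hoxa10, Meis1, Mef2c and Pbx3 was 957.4 and 973.2 CPM in NT, 725.9 and 685.2 in Low and 486.9 and 423.9 in High (K3117 first here and below). Late neutrophil markers (9 genes) summed to 20.5 and 113.1 CPM in NT, 103.3 and 1230.5 in Low and 1518.1 and 6767.8 in High, and 8 of the 9 were higher in High than in NT by the test used below. Primary granule markers (5 genes) summed to 1199.7 and 2568.2, 3197.6 and 5681.8, and 4377.3 and 5849.7 CPM. Mast cell and basophil markers (6 genes) ran from 119.8 to 191.3 CPM in NT, 184.8 to 273.7 in Low and 462.6 to 802.3 in High. Dendritic cell markers (6 genes) ran from 47.6 to 118.4, 21.5 to 50.6 and 14.4 to 38.7 CPM. Monocyte markers (7 genes) ran from 264.7 to 496.7, 182.2 to 321.6 and 312.7 to 553.6 CPM, sums that join 3 genes that rose in High against NT (Csf1r at log2 1.398, Adgre1 at 1.26 and Cd14 at 1.38) with 3 that fell (Ccr2 at -1.21, Ly86 at -1.04 and Cx3cr1 at -0.70). Erythroid markers (5 genes) stayed at or below 5.47 CPM in every library. Cd3e and Cd8a of T cells, Ms4a1 of B cells, and Col1a2 and Cxcl12 of stroma had 0 counts in all 6 libraries, while the T and NK cell sum (12.9 to 56.2 CPM) was mostly Nkg7, the B cell sum (9.56 to 17.2 CPM) mostly Cd79b and the stromal and endothelial sum (114.7 to 213.2 CPM) almost wholly Pecam1. In High against NT the neutrophil, granule and mast cell lists thus had genes that rose (8 of 9, 4 of 5 and 4 of 5 tested) and none that fell, and the dendritic cell and fusion target lists genes that fell (4 of 6 and 5 of 5) and none that rose. In Low against NT 1 of the 5 tested mast cell genes rose, Hdc, and the list's median was -0.10. Their part, and that of the monocyte genes, in the results below was not tested. In bulk RNA, fewer cells of a type and less RNA per cell cannot be told apart.

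**Figure D1:**
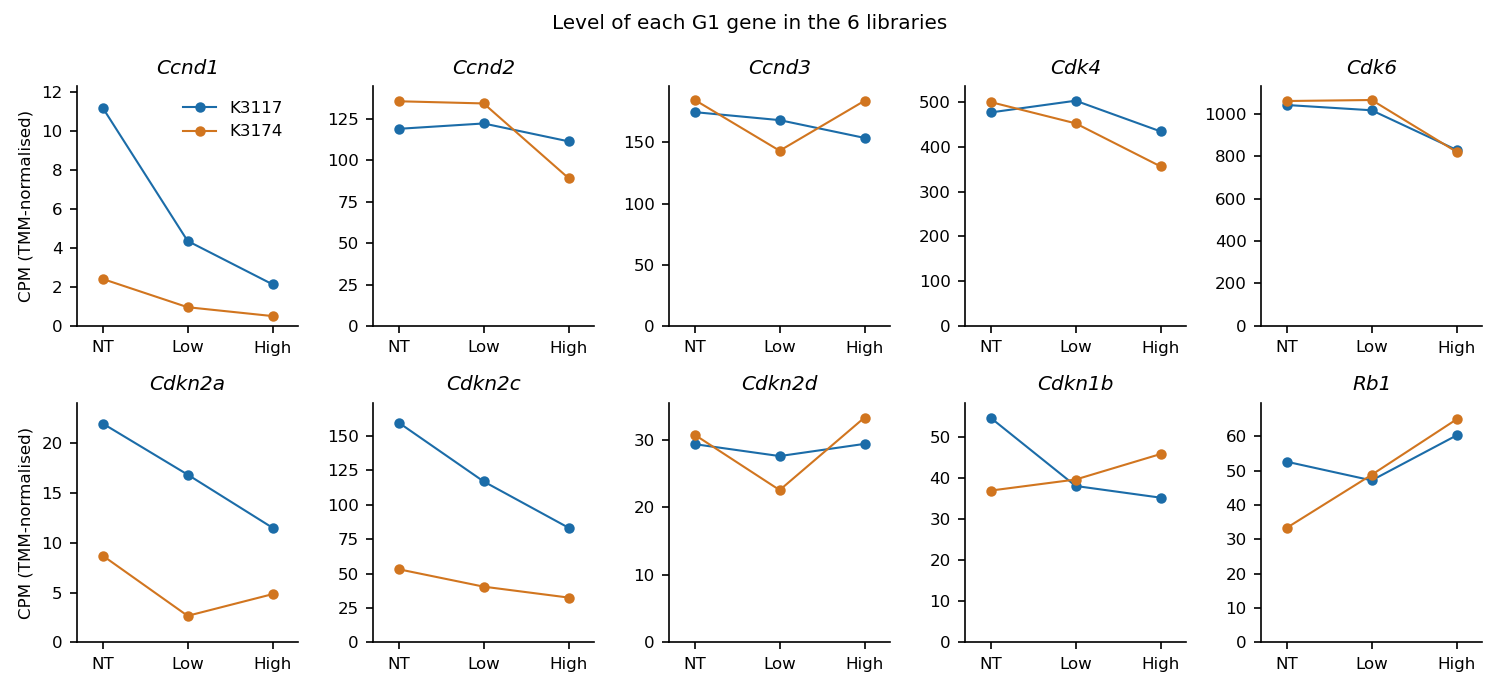
Level of each of the 10 genes in TMM-normalised CPM (vertical axis, from 0) under the 3 labels (horizontal axis), 1 point per library, with a line for each leukemia. Ccnd1 and Cdkn2c step down from NT to Low to High in both leukemias, Cdk6 is lower in High only, and K3117 lies above K3174 for Ccnd1, Cdkn2a and Cdkn2c.

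Divided by exon length, which allows genes to be compared, the kinases were the most abundant of the 10 in NT. In K3117, though, Cdkn2c at 59.4 CPM per kb came near Cdk6 at 74.5. Cdk4 stood at 150.4 ± 5.03 and Cdk6 at 75.1 ± 0.951 CPM per kb (SD, n = 2 libraries, as in all such values). Below them came Cdkn2c at 39.6 ± 28.0, Ccnd3 at 20.5 ± 0.802, Cdkn2d at 19.1 ± 0.621, Ccnd2 at 13.5 ± 1.25, Cdkn2a at 13.1 ± 8.01, Cdkn1b at 10.1 ± 2.75, Rb1 at 7.14 ± 2.26 and Ccnd1 at 1.44 ± 1.32 CPM per kb. Cdkn2c overlapped its lower neighbour Ccnd3 within its spread, because it was 59.4 in K3117 and 19.8 in K3174. Ccnd2, Cdkn2a, Cdkn1b and Rb1 also overlapped from neighbour to neighbour. The gap between Ccnd3 and Cdkn2d was about the sum of their SDs, and the remaining neighbours lay further apart than theirs. The exon length is that of all annotated transcripts together (14.0 kb for Cdk6, 1.17 kb for Cdkn2a), so a gene whose cells use a short transcript has its level understated.

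The 3 D cyclins kept unequal places in all libraries. Ccnd3 gave between 53.0% and 68.6% of the summed D cyclin level per kb, Ccnd2 between 31.0% and 46.3%, and Ccnd1 between 0.351% and 6.80%. The sum was 34.9 and 36.0 CPM per kb in NT, 33.1 and 30.8 in Low and 29.8 and 30.6 in High. Both High sums and both Low sums were therefore below both NT sums. Among single genes, 25.3% lay lower without overlap in High against NT and 15.8% in Low against NT.

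Ccnd1 (ENSMUSG00000070348.5, GRCm38 chromosome 7, 144929931 to 144939925, minus strand) encodes cyclin D1, the form used mainly outside the blood. It was counted 372, 136 and 48 times in NT, Low and High of K3117 and 55, 32 and 15 times in K3174. In CPM this was 11.2, 4.36 and 2.13 in K3117 and 2.41, 0.959 and 0.505 in K3174. Each leukemia stepped down with the labels, from starting levels that were far apart, so that High in K3117 lay just under NT in K3174. High was 5.05-fold below NT (95% interval 3.35 to 7.61, log2 -2.34 ± 0.27 SE, adjusted p = 0.00011 by edgeR's quasi-likelihood test, the source of every adjusted p here unless another is named). Low was 2.54-fold below NT (1.75 to 3.69, log2 -1.34 ± 0.25, adjusted p = 0.012), and High against Low gave log2 -0.99 ± 0.28 (adjusted p = 0.069). The change within K3117 was -2.35 and within K3174 -2.11 for High, and -1.35 and -1.27 for Low. Ccnd1 shares 1100 exon bases with the gene annotated as LTO1 on the other strand, and whether the counting used strand is unknown. LTO1 itself stayed between 9.10 and 10.1 CPM in all 6 libraries. The call for Low was lost when either Low library was left out, at -1.34 and an adjusted p of 0.18 for the one of K3117 and at -1.33 and 0.12 for the one of K3174.

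Ccnd2 (ENSMUSG00000000184.12, chromosome 6, 127125162 to 127152193, minus strand), which encodes cyclin D2, was at 119.0, 122.2 and 111.4 CPM in NT, Low and High of K3117 and at 135.6, 134.3 and 89.2 CPM in K3174. NT and Low lay together, and High was the lowest library of each leukemia. The log2 fold change was -0.34 ± 0.14 for High against NT (0.788-fold, interval 0.637 to 0.975, adjusted p = 0.12) and 0.01 ± 0.14 for Low against NT (interval 0.816- to 1.24-fold, adjusted p = 0.99). The difference for High was -0.60 in K3174 and -0.09 in K3117. High against NT passed in 3 of 14 alternatives, among them upper quartile scaling (-0.44, adjusted p = 0.0425). Without NT of K3117 it passed at -0.49 (adjusted p = 0.0067) and without High of K3117 at -0.60 (0.036). It was -0.20 without NT of K3174 (0.38) and -0.11 without High of K3174 (0.92).

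Ccnd3 (ENSMUSG00000034165.16, chromosome 17, 47505051 to 47599691, plus strand), cyclin D3, was at 174.8, 168.3 and 153.7 CPM in K3117 and at 184.8, 143.3 and 184.1 CPM in K3174. The lowest library was High in K3117 and Low in K3174, and NT and High overlapped. Its log2 fold change was -0.09 ± 0.13 for High against NT (interval 0.768- to 1.15-fold, adjusted p = 0.72) and -0.21 ± 0.13 for Low against NT (0.709- to 1.06-fold, adjusted p = 0.65). Ccnd3 shares 361 exon bases with Bysl on the other strand, a gene at 55.2 to 87.4 CPM. Ccnd2 and Cdk6 overlap only antisense genes with at most 166 counts over all libraries, Ccnd2 by 368 and 372 exon bases and Cdk6 by 368.

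Cdk6 and Cdk4 were lower in High than in either other label in both leukemias, and neither passed the threshold. Cdk6 (ENSMUSG00000040274.11, chromosome 5, 3341485 to 3531008, plus strand) was at 1041.5, 1016.6 and 829.7 CPM in K3117 and at 1060.3, 1065.0 and 820.8 CPM in K3174. The 4 NT and Low libraries lay within a narrow band, and both High libraries lay well under it. High against NT gave a log2 fold change of -0.35 ± 0.12 (0.785-fold, interval 0.657 to 0.939, adjusted p = 0.064), with -0.33 in K3117 and -0.37 in K3174. High against Low gave -0.33 ± 0.12 (adjusted p = 0.16), and Low against NT -0.01 ± 0.12 (interval 0.829- to 1.18-fold, adjusted p = 0.99). High against NT passed the threshold in 7 of 14 alternatives, among them DESeq2 (adjusted p = 0.030) and the fits without NT of K3117 (0.036) or of K3174 (0.046), with a value that ran only from -0.44 to -0.32.

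Cdk4 (ENSMUSG00000006728.12, chromosome 10, 127063534 to 127067920, plus strand), whose upstream sequence with its 4 E-boxes is printed above, was at 477.1, 503.3 and 434.7 CPM in K3117 and at 500.2, 452.7 and 356.5 CPM in K3174. High was the lowest library of each leukemia, while Low was above NT in K3117 and below it in K3174. High against NT was -0.31 ± 0.13 (0.805-fold, interval 0.666 to 0.974, adjusted p = 0.12), -0.13 in K3117 and -0.49 in K3174. Low against NT was -0.04 ± 0.13 (interval 0.806- to 1.18-fold, adjusted p = 0.98). High against NT passed in 3 of 14 alternatives, among them scaling by library size alone (-0.37, adjusted p = 0.048) and by upper quartile (-0.41, 0.035). It was -0.46 without NT of K3117, -0.17 without NT of K3174 and -0.19 without High of K3174. Cdk4 shares 641 exon bases with Tspan31 on the other strand, at 42.1 to 60.6 CPM. Per kb, Cdk6 made up 30.7% to 35.3% of the 2 kinases' summed level in every library, and that sum was 221.3 and 229.8 CPM per kb in NT, 227.6 and 215.5 in Low and 193.1 and 168.4 in High.

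**Figure D2:**
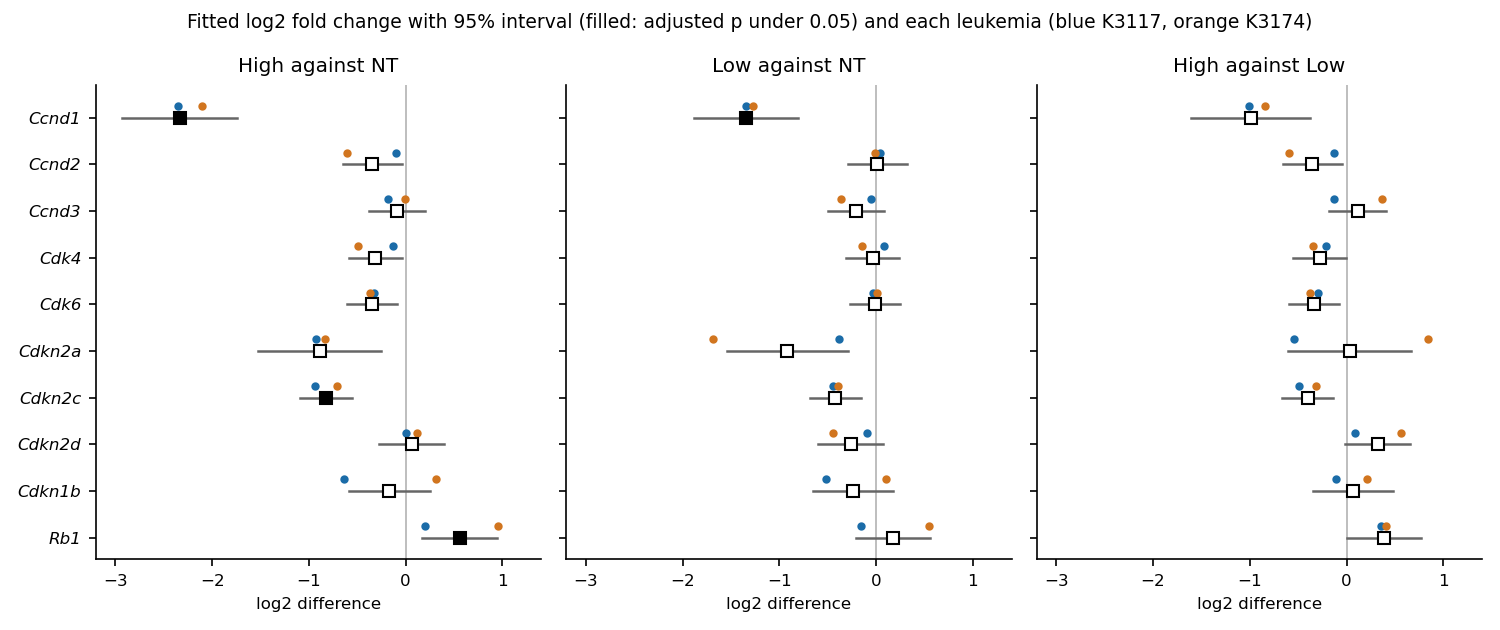
Log2 fold change of each gene (horizontal axis) in 3 contrasts of the labels, with squares for the fit over 6 libraries, bars for its 95% interval, filled squares for an adjusted p under 0.05, and dots for the difference within K3117 (blue) and K3174 (orange). Ccnd1, Cdkn2c and Rb1 passed for High against NT and Ccnd1 for Low against NT, and the 2 dots of Cdkn1b lie on opposite sides of 0 in all 3 panels.

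Among the INK4 inhibitors, Cdkn2c fell in High and Cdkn2d did not move past the threshold. Cdkn2c (ENSMUSG00000028551.14, chromosome 4, 109660876 to 109667189, minus strand) encodes p18INK4c, which limits the division of blood stem and progenitor cells. It was at 159.6, 116.9 and 83.3 CPM in NT, Low and High of K3117 and at 53.1, 40.5 and 32.6 CPM in K3174. Both leukemias stepped down in the order of the labels, although the lowest library of K3117 was above the highest of K3174. High was 1.77-fold below NT (interval 1.47 to 2.13, log2 -0.82 ± 0.12, adjusted p = 0.00061), with -0.94 in K3117 and -0.70 in K3174. Low against NT was -0.42 ± 0.12 (adjusted p = 0.094) and High against Low -0.40 ± 0.12 (adjusted p = 0.089), so the middle label did not separate from either end at the threshold. Low against NT passed without NT of K3174 (-0.49, adjusted p = 0.018).

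Cdkn2a (ENSMUSG00000044303.6, chromosome 4, 89274471 to 89294653, minus strand), the joint count of p16INK4a and p19ARF transcripts from the start sites printed above, was at 21.98, 16.85 and 11.5 CPM in K3117 and at 8.71, 2.67 and 4.85 CPM in K3174. K3117 stepped down with the labels, whereas in K3174 the lowest library was Low. High against NT was -0.89 ± 0.29 (0.541-fold, interval 0.349 to 0.840, adjusted p = 0.057), with -0.93 in K3117 and -0.84 in K3174, and it passed in 10 of 14 alternatives. Of the fits without a library, those without NT of K3174 (-0.60, adjusted p = 0.16) or High of K3117 (-0.54, 0.25) did not pass and the other 4 did, the value reaching -1.24 without High of K3174. Low against NT was -0.92 ± 0.29 (adjusted p = 0.13), made of -0.38 in K3117 and -1.68 in K3174, and it passed in 7 of 14 alternatives. It was -1.71 without Low of K3117 (adjusted p = 0.0028), -0.36 without Low of K3174 and -0.64 without NT of K3174 (adjusted p = 0.19), and it passed without NT of K3117 (-1.24, 0.0024) or either High library (both -0.96). Its neighbour Cdkn2b, which encodes p15INK4b, was at 0.270 to 1.17 CPM in the 6 libraries.

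Cdkn2d (ENSMUSG00000096472.2, chromosome 9, 21288410 to 21291407, minus strand), p19INK4d, was at 29.3, 27.6 and 29.4 CPM in K3117 and at 30.7, 22.5 and 33.3 CPM in K3174. Low was the lowest library of each leukemia, and NT and High overlapped. High against NT was 0.06 ± 0.15 (interval 0.829- to 1.32-fold, adjusted p = 0.84), Low against NT -0.26 ± 0.15 (adjusted p = 0.57) and High against Low 0.32 ± 0.15 (adjusted p = 0.35).

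The make-up of the INK4 genes differed accordingly. Their summed level per kb was 96.8, 75.4 and 59.5 in NT, Low and High of K3117 and 46.7, 31.7 and 37.4 in K3174. Cdkn2c gave 61.4%, 57.7% and 52.1% of it in K3117 and 42.3%, 47.6% and 32.4% in K3174. Cdkn2d gave 19.3%, 23.2% and 31.4% in K3117 and 41.8%, 45.2% and 56.5% in K3174. Set against the 2 kinases, the INK4 sum was 0.438, 0.331 and 0.308 of the kinase sum in K3117 and 0.203, 0.147 and 0.222 in K3174. The INK4 sum takes in the p19ARF transcripts counted under Cdkn2a and leaves out Cdkn2b, so it is not a clean INK4 level.

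**Figure D3:**
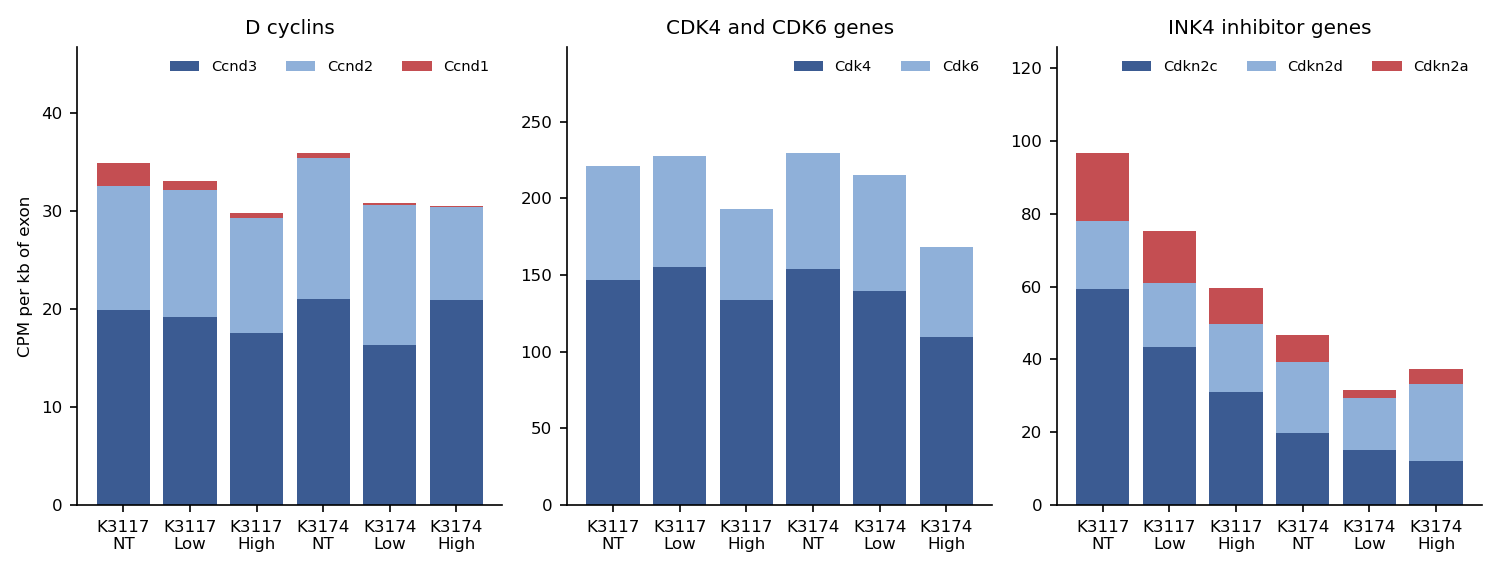
Stacked bars of CPM per kb of exon (vertical axis, from 0) in the 6 libraries, for the D cyclins, the 2 kinases and the INK4 inhibitors. The INK4 bars hold Cdkn2c, Cdkn2d and Cdkn2a, the last with its p19ARF transcripts. The INK4 bars run from 31.7 to 96.8 and are taller in K3117 under every label, while the D cyclin bars run only from 29.8 to 36.0.

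Cdkn1b (ENSMUSG00000003031.14, chromosome 6, 134920401 to 134925513, plus strand), which encodes p27, was at 54.8, 38.2 and 35.3 CPM in K3117 and at 37.0, 39.7 and 45.9 CPM in K3174. The levels went down with the labels in 1 leukemia and up in the other. The fit therefore gave -0.17 ± 0.19 for High against NT (interval 0.665- to 1.19-fold, adjusted p = 0.63), from -0.63 in K3117 and 0.31 in K3174. Low against NT was -0.24 ± 0.19 (adjusted p = 0.77), from -0.52 and 0.10. Without NT of K3174 both contrasts passed downward, at -0.55 (adjusted p = 0.0095) and -0.60 (0.011), and without NT of K3117 they were 0.23 and 0.19.

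Rb1 (ENSMUSG00000022105.6, chromosome 14, 73183673 to 73325822, minus strand), the substrate of the kinases and the brake on E2F, was the member that rose. It was at 52.6, 47.2 and 60.2 CPM in K3117 and at 33.4, 48.8 and 64.9 CPM in K3174. High was the highest library of each leukemia, and the NT level of K3174 was the lowest of the 6. High was 1.47-fold above NT (interval 1.13 to 1.93, log2 0.56 ± 0.18, adjusted p = 0.049), with 0.20 in K3117 and 0.96 in K3174. Low against NT was 0.17 ± 0.18 (adjusted p = 0.86) and High against Low 0.39 ± 0.17 (adjusted p = 0.32), the latter with 0.35 and 0.41 in the 2 leukemias. The rise against NT missed the threshold in 7 of 14 alternatives, among them those without NT of K3174 (0.21, adjusted p = 0.35) or High of K3174 (0.36, adjusted p = 0.40), and it was 0.94 without NT of K3117. Without that library Low against NT passed too (0.57, adjusted p = 0.0070). Rb1 shares 488 exon bases with Rcbtb2 and 408 with Lpar6 on the other strand. Rcbtb2 also rose in High (0.63 ± 0.17, adjusted p = 0.028) at 16.7 to 32.3 CPM, and whether its reads add to the Rb1 count was not tested.

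Counted together for High against NT, Ccnd1 and Cdkn2c fell, Rb1 rose, and 7 of the 10 genes did not pass. Of all 15812 genes, 17.3% passed, 7.32% lower and 10% higher. The members' median log2 fold change was -0.33, beside -0.01 over all genes tested. The NT and High libraries did not overlap for 4 members that were lower in High (Cdk4, Cdk6, Ccnd1 and Ccnd2) and for Rb1, which was higher, against 25.3% of all genes in each direction. In both leukemias 7 members were lower in High and 2 higher, against 33.6% and 32.1% of all genes. An unadjusted p under 0.05 was reached by 7 members and by 4544 of the 15812 genes. DESeq2 called 4 members lower and 1 higher, where it called 944 of all genes lower and 1469 higher. Upper quartile scaling moved the median of all genes to -0.11 and the share of higher calls from 57.8% to 43.9%. With it 6 members passed as lower, where 10.5% of all genes did, and Rb1 no longer passed (0.46, adjusted p = 0.095). Without the leukemia as a replicate block none of the 10 passed, and Ccnd1 (-2.39, adjusted p = 0.29), Cdkn2c (-0.88, 0.56) and Rb1 (0.54, 0.23) lost their calls. In that fit 493 of all genes passed, and Ccnd1 also lost its call for Low against NT (-1.36, adjusted p = 0.999).

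For Low against NT, Ccnd1 was the 1 member of 10 that passed, against 3.34% of all genes (1.29% lower and 2.05% higher), and the members' median was -0.22 beside -0.01 over all genes. Low and NT did not overlap for Ccnd3 and Cdkn2d, both lower in Low, where 15.8% of all genes did so in each direction. In both leukemias 5 members were lower in Low and none higher, against 27.4% and 25.1% of all genes. No member passed for High against Low by edgeR or by DESeq2, where 5.48% of all genes did by edgeR (4.12% higher and 1.35% lower). High and Low did not overlap for 5 members, against 36.4% of all genes, and in both leukemias 5 were lower and 2 higher, against 30.9% and 32.2%. In that contrast 6 members had an unadjusted p under 0.05, as did 2417 of the 15812 genes, and the median was -0.12 beside 0.00. In a fit of only the 2 groups compared these 6 passed, 5 lower and 1 higher, where 12.2% of all genes passed. Without either NT library, which this contrast does not hold, those 6 passed (Cdk4, Cdk6, Ccnd1, Ccnd2 and Cdkn2c lower and Rb1 higher, adjusted p from 0.0040 to 0.045). None of the 10 passed when any 1 of the 4 High and Low libraries was left out. High against NT and Low against NT share the NT libraries, so their values are given side by side only.

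**Figure D4:**
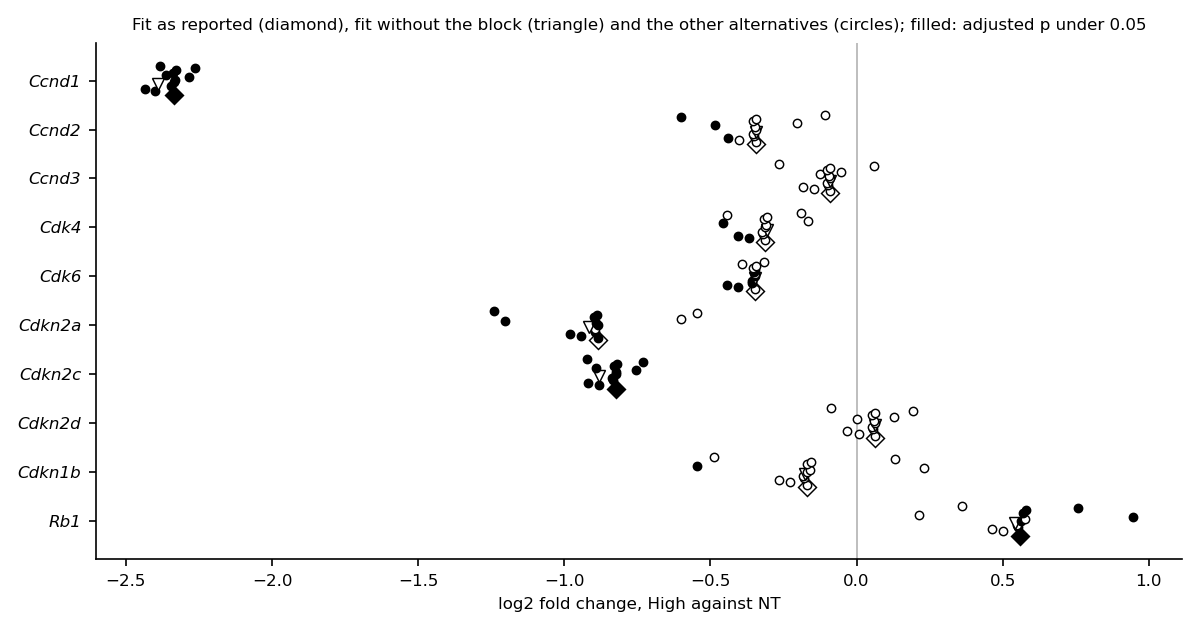
Log2 fold change for High against NT (horizontal axis) of each gene as reported (diamond), without the leukemia block (triangle) and under the other alternatives (circles), filled where the adjusted p was under 0.05. Ccnd1 and Cdkn2c stay filled in all but the triangle, Cdk6 values lie close together with filled and open marks, and Rb1 spreads from 0.21 to 0.94.

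Setting the leukemias side by side, 3 of the 10 genes were lower in K3174 than in K3117 past the threshold and none higher, where 9.37% of all genes passed, 6.32% lower and 3.05% higher. The same 3 were lower in K3174 under all 3 labels and none was higher under all of them, against 20.9% and 17.9% of all genes. Cdkn2c was 2.81-fold lower in K3174 (interval 2.41 to 3.28, log2 -1.49 ± 0.10, adjusted p = 3.2e-06), with differences of -1.59, -1.53 and -1.35 under NT, Low and High. Ccnd1 was 4.49-fold lower (3.23 to 6.25, log2 -2.17 ± 0.22, adjusted p = 6.7e-05), with -2.18, -2.11 and -1.94. Cdkn2a was 3.30-fold lower (2.28 to 4.76, log2 -1.72 ± 0.24, adjusted p = 0.00076), with -1.33, -2.63 and -1.24. These 3 kept their calls in every alternative that tested them. The kinases did not differ between the leukemias past the threshold, with Cdk6 at 0.03 ± 0.10 (interval 0.880- to 1.18-fold) and Cdk4 at -0.12 ± 0.10 (0.786- to 1.07-fold). Outside the 10 genes, the inhibitor Cdkn1a, encoding p21, passed at -0.86 (adjusted p = 0.00054), with 119.9, 102.9 and 91.0 CPM in K3117 and 65.7, 47.0 and 60.5 CPM in K3174. It was named after its values were seen. Whether the leukemias differ as mice or as cultures is not stated, and with 1 source each the difference holds for these 2 only.

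The lists for the rest of the G1 pathway are read beside the 17.3% of all genes called for High against NT, 10% higher and 7.32% lower. Of 22 E2F target genes of G1/S, such as the Mcm helicase genes, none passed for High against NT by edgeR or by DESeq2, 1 had an unadjusted p under 0.05, and the median was -0.10 (range -0.28 to 0.37). Of 10 E2F and DP factors, none passed by edgeR for that contrast (2 at an unadjusted p under 0.05, and 1 higher and 1 lower by DESeq2), with a median of 0.14. E2f2, an activating E2F, was at 46.1, 35.6 and 46.1 CPM in K3117 and at 50.6, 36.7 and 67.5 CPM in K3174. It was lowest in Low in both leukemias and higher in High than in Low (0.63 ± 0.15, adjusted p = 0.029), and it was named after its values were seen. Of 20 G2 and M phase genes none passed by either tool, none had an unadjusted p under 0.05, and the median was -0.02. Of 13 tested genes for the turnover of cyclin D and p27, such as Skp2, none passed by either tool, with 1 at an unadjusted p under 0.05 and a median of -0.05. In the cyclin E, cyclin A and CDK2 list, 1 of 9 tested genes passed: Cdc25a, the phosphatase that activates CDK2, rose from 91.9 and 126.9 CPM in NT to 127.3 and 158.8 in High (0.40 ± 0.11, adjusted p = 0.034), with Low between them in each leukemia.

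Among the other CDK inhibitors and pocket proteins, 1 of 5 passed. Cdkn1c, encoding p57, fell from 1.44 and 0.657 CPM in NT to 0.178 and 0.0673 in High (-3.08 ± 0.59, adjusted p = 0.0037), with Low at 0.641 and 0.210, so all its levels were near the bottom of the scale. The pocket proteins Rbl1 (-0.14 ± 0.12) and Rbl2 (0.05 ± 0.13) did not pass. In the list around the Ink4a/Arf locus and the Arf arm, 3 of 19 tested genes rose and none fell, a share near that of all genes (17.3% called), with a median of 0.02. Ets1, an ETS factor, rose from 41.4 and 18.6 CPM in NT to 102.5 and 105.9 in High (1.86 ± 0.23, adjusted p = 0.00019), and it passed for Low also (1.195 ± 0.23, adjusted p = 0.015), though not by DESeq2. Ets2 rose by 0.52 ± 0.12 (adjusted p = 0.013), and Mdm2, the ligase that p19ARF inhibits, by 0.46 ± 0.14 (adjusted p = 0.045). The polycomb genes Bmi1 (0.10 ± 0.14) and Ezh2 (-0.25 ± 0.11, adjusted p = 0.16), which repress the locus, did not pass. Of 12 genes for quiescence and the DREAM complex 1 rose, the antiproliferative gene Btg2, from 7.64 and 5.25 CPM in NT to 14.6 and 24.4 in High (1.53 ± 0.27, adjusted p = 0.0021), with a list median of 0.13.

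The list with most calls held transcription factors known to act on D cyclins, Cdk4 or p27: 6 of 19 rose in High, 1 fell, and the median was 0.20, beside 10% and 7.32% of all genes. The list was chosen with earlier results of these data known, so its share cannot be read as an excess among G1 regulators. Myc itself was at 126.4, 177.9 and 170.6 CPM in K3117 and at 139.9, 148.0 and 153.6 CPM in K3174, and did not pass (0.28 ± 0.13, adjusted p = 0.17). MXD1 and MXI1 are known to compete with MYC for its partner MAX. Mxi1 stepped up from 54.9 to 74.9 and 104.3 CPM in K3117 and from 70.3 to 101.0 and 141.4 CPM in K3174 (High against NT 0.97 ± 0.12, adjusted p = 0.00014). It passed for Low too (0.49, adjusted p = 0.044). Mxd1 went from 50.8 to 75.3 and 83.4 CPM in K3117 and from 32.8 to 48.7 and 90.2 CPM in K3174 (1.10 ± 0.18, adjusted p = 0.0011). The granulocyte factors Cebpe (3.30 ± 0.22) and Gfi1 (2.04 ± 0.12) and the myeloid factor Spi1 (0.77 ± 0.12) rose as well. All 3 are known for their part in myeloid differentiation. The neutrophil and primary granule marker sums given above were also higher in High than in NT, though Ctsg (0.17 ± 0.18) and Mmp8 (0.0054 ± 0.27) did not pass. A link between factors and markers was not tested. Foxo1, a factor known to activate Cdkn1b, was the 1 that fell (-1.37 ± 0.28, adjusted p = 0.0056), from 6.43 and 3.55 CPM in NT to 3.11 and 1.01 in High, and was named after its values were seen.

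**Figure D5:**
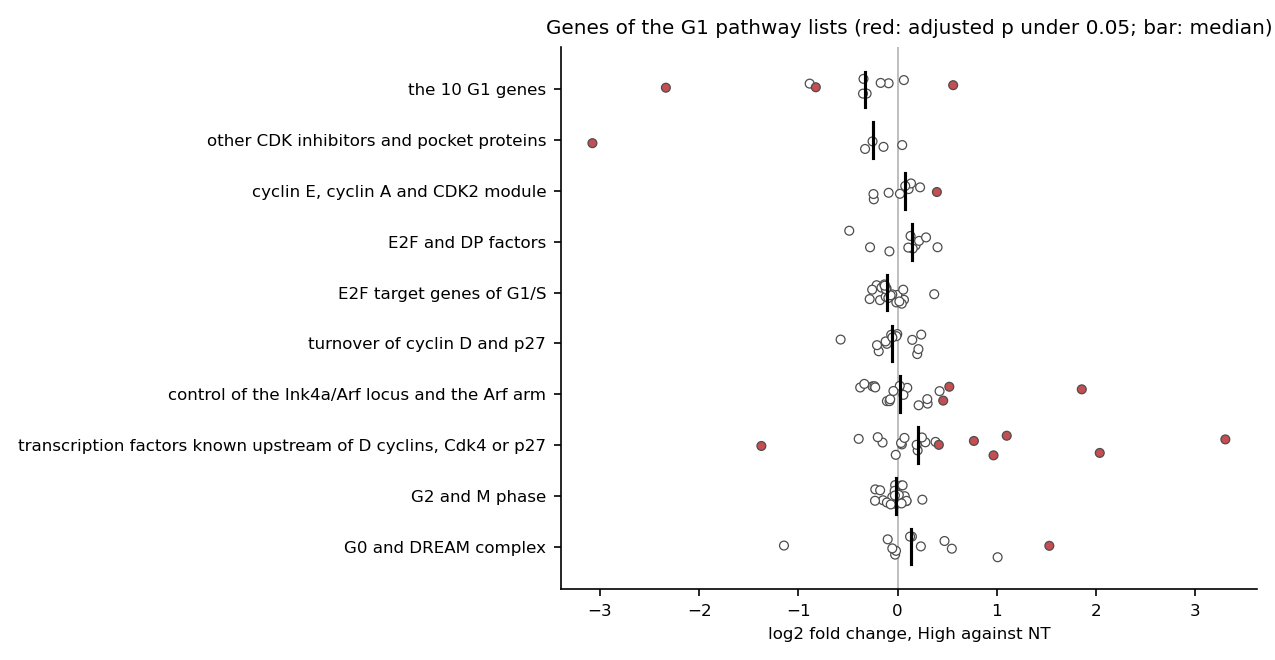
Log2 fold change for High against NT (horizontal axis) of every tested gene in the 10 G1 genes and 9 pathway lists, 1 point per gene, red where the adjusted p was under 0.05, with a bar at the median. The E2F target and G2 and M phase lists show no red point, and the list of transcription factors shows 7.

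Genes with a pattern like that of the 3 called members were sought among 9453 named coding genes with a mean CPM of at least 5, by the correlation of log2 CPM over the 6 libraries. Ccnd1 was closest to Tmem173, the DNA sensor adaptor STING (r = 0.996), Angpt1, a ligand of the receptor TIE2 (0.994), and Ago1 (0.993). Tmem173 was at 99.0, 69.8 and 60.0 CPM in K3117 and at 58.2, 46.8 and 39.2 CPM in K3174. Cdkn2c was closest to Muc13, a membrane mucin at 214.3, 170.9 and 117.2 CPM in K3117 and 70.4, 59.7 and 50.8 CPM in K3174 (r = 0.996), then Hmgn3 (0.996) and Cbr1 (0.995). Rb1 was closest to Fnip1, a folliculin partner at 92.4, 85.0 and 107.2 CPM in K3117 and 64.7, 92.8 and 115.0 CPM in K3174 (r = 0.993), then Abhd18 (0.992) and Dcaf6 (0.991). With 3 labels and 2 leukemias behind every point such values are easily reached: r was over 0.95 for 150, 128 and 54 genes.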

How the data were processed

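The authors deposited whole-number read counts per gene, 1 column per library, taken here unchanged. Per the submitters' processing notes, the tools were kallisto, STAR, STAR-Fusion and DESeq2 and the build mm10, with no role attached. The annotation and whether counting used strand are not given in those notes. Symbols (99.5% of IDs), positions and exon lengths came from GENCODE M21 (GRCm38), promoters from RefSeq. In R 4.3.3 with edgeR 4.0.16, genes passing filterByExpr were TMM-scaled and fitted by a quasi-likelihood model over all 6 libraries, with label and leukemia as a block (2 residual degrees of freedom), and p-values were Benjamini-Hochberg adjusted over 15812 genes at a threshold of 0.05. The SE is the log2 fold change over the root of F. Differences within a leukemia are of log2 CPM with a prior count of 2.

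The titles give each K number to every label, and deviations of the leukemias from group means correlated at 0.57, 0.44 and 0.64 between labels. Whether K numbers are separate mice is not stated. If they are not, the p-values reflect no more than the spread among these samples, which may be technical. All library pairs differed by more than sampling noise (smallest chi-square 27.1 per degree of freedom). Code was tested on simulated counts. Alternatives were RLE, library size and upper quartile scaling, 2 other filters, DESeq2 1.42.0, no block, only the groups compared, and leaving out each library. The members, 9 pathway lists (134 names, Skp1 not found) and 10 marker lists were chosen with earlier results of these data known. Named genes are the members, up to 5 called genes per list for High or Low against NT by smallest p, and the 3 genes most like each of the 3 members with the smallest p. Genes such as Myc, Bmi1, Ezh2, Rbl1, Rbl2, Cdkn2b, Cdkn1a, E2f2 and Foxo1 are named beyond that rule. Intervals cover the fitted spread only.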

Additional observations from a re-analysis of the deposited data

Results flagged for a closer look

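For 5 of the 10 genes the 2 leukemias differed in the sign of a contrast with NT. Each contrast rests on 1 library per label and leukemia, so the difference was not tested, and values are log2 CPM differences. Cdkn1b was lower in High than in NT in K3117 (-0.63) and higher in K3174 (0.31), and for Low it was -0.52 in K3117 and 0.10 in K3174. Rb1 was -0.16 in K3117 and 0.55 in K3174 for Low. Cdk4 was 0.077 in K3117 and -0.14 in K3174 for Low. Cdk6 (-0.035 in K3117 and 0.0063 in K3174) and Ccnd2 (0.039 in K3117 and -0.014 in K3174) crossed 0 for Low by amounts far below the SE of their fitted contrasts.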

How the results depend on the processing

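Over 40 results (10 genes in 4 contrasts), 430 alternative values kept their direction and side of the threshold, 12 no longer passed, 56 newly passed and 38 changed sign. No value that changed sign passed the threshold. The cause of these changes was not tested, though leaving out a library also leaves fewer samples. Without the replicate block, 493 genes passed for High against NT, 0 for Low against NT and 0 for High against Low by edgeR (3142, 950 and 1238 at an unadjusted p under 0.05, and 583 for Low against NT by DESeq2 with the block), with 2741, 528 and 866 passing as reported, and Cdkn2a in High against Low was -0.26. With no filter, 1071 genes passed for Low against NT and 1425 for High against Low, and Cdk6 for Low against NT was 0.0018. With a CPM of at least 5, 568 passed for High against Low and 932 for K3174 against K3117 (1481 as reported), and Ccnd1 gave no value. With only the groups compared, 881 and 1864 passed for Low against NT and High against Low. With library sizes alone, Ccnd2 was -0.0014 for Low against NT and -0.014 for K3174 against K3117, and Cdkn2a was -0.0094 for High against Low. Upper quartile factors gave -0.017 and -0.0024 for the same contrasts of Ccnd2, -0.032 for Cdkn2a and -0.031 for Cdkn2d in High against NT.

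Leaving out each library in turn gave 1927 to 4394 genes for High against NT (most without NT of K3117), 144 (without Low of K3174) to 1483 (without NT of K3117) for Low against NT, 335 (without Low of K3117) to 1982 (without NT of K3117) for High against Low and 829 (without Low of K3117) to 2642 (without NT of K3117) for K3174 against K3117. Without the other NT library, K3174, these 3 counts were 885, 1934 and 2532, and without the other Low library they were 355 (K3117), 489 (K3174) and 858 (K3174). Low against NT also gave 958 and 951 without High of K3117 and K3174. For High against NT, Ccnd3 ran from -0.26 to 0.061, Cdkn1b from -0.55 to 0.23 and Cdkn2d from -0.088 to 0.19. For Low against NT, Cdk4 ran from -0.17 to 0.11, Cdk6 from -0.041 to 0.029, Ccnd2 from -0.12 to 0.16, Cdkn1b from -0.60 to 0.19 and Rb1 from -0.17 to 0.57. For High against Low, Ccnd3 ran from -0.084 to 0.30, Cdkn1b from -0.28 to 0.35 and Cdkn2a from -0.53 to 0.82. For K3174 against K3117, Cdk6 ran from -0.0033 to 0.051, Ccnd2 from -0.085 to 0.17, Ccnd3 from -0.073 to 0.18, Cdkn1b from -0.25 to 0.23, Cdkn2d from -0.11 to 0.13 and Rb1 from -0.30 to 0.088. Where a library was left out of a label, its lone sample is assumed to vary like the others.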
